A study of Homo sapiens with 10 samples.

Results

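The 28 genes described here encode proteins of the small (40S) subunit of the cytosolic ribosome. They were chosen by name, as a list of small-subunit protein symbols with 1 copy of each paralogue pair, and not by their values. All 28 were found among the 55889 gene identifiers of each file, and all 28 passed the filter that left 10297 genes for testing. Results are ordered below by the place of the protein in the subunit: 12 belong to the head and 16 to the body and platform.

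The cells were KOPT-K1, an established human T-cell acute lymphoblastic leukaemia line. They received 25 nM silvestrol, a plant-derived inhibitor of the RNA helicase eIF4A, or the solvent DMSO, for 45 min. For each treatment there were 2 libraries of ribosome footprints, the mRNA pieces that translating ribosomes protect from nuclease, and 3 libraries of total RNA, 10 in all. All groups came from this 1 line, and the labels do not say whether numbered replicates were separate cultures, so a p-value here reflects the scatter among the libraries, and that scatter may be technical.

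Each small subunit holds one copy of each of these proteins on the 18S rRNA. The head and the body close on the mRNA between them, and this is where start codons are scanned for and codons are read. The mRNAs of ribosomal proteins belong to the TOP class: they begin with a C and a run of pyrimidines, the 5′ terminal oligopyrimidine tract, which makes their translation follow mTOR signalling. eIF4A unwinds structure in 5′ untranslated regions so that the small subunit can load and scan.

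The start sites carry that tract in most of the 28 genes, so a few are shown before the values. Each line runs 5′ to 3′ on the coding strand, from 15 bases before to 15 bases after the start that RefSeq annotates, on GRCh38.p14. Capitals mark a C followed by at least 4 bases that are each C or T, if its first base lies within 10 bases of the start; only the coding strand was searched. RPSA and RPS15 had the highest silvestrol-to-DMSO ratio of translational efficiency, RPS28, RPS24, RPS19 and RPS21 the lowest, RPS25 and RPS16 the highest footprint levels, and RPS4X and RPS29 held no tract.
RPSA, chr3:39406705-39406734, plus strand: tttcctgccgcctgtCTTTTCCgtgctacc
RPS15, chr19:1438381-1438410, plus strand: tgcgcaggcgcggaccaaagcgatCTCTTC
RPS28, chr19:8321481-8321510, plus strand: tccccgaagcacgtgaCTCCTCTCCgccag
RPS24, chr10:78033848-78033877, plus strand: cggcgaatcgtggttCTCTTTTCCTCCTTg
RPS19, chr19:41860240-41860269, plus strand: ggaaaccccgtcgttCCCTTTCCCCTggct
RPS21, chr20:62387088-62387117, plus strand: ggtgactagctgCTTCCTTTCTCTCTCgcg
RPS25, chr11:119018329-119018358, minus strand: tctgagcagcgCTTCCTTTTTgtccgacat
RPS16, chr19:39435935-39435964, minus strand: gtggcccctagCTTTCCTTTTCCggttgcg
RPS4X, chrX:72277234-72277263, minus strand: gcagtctccagccccaatttctacgcgcac
RPS29, chr14:49598696-49598725, minus strand: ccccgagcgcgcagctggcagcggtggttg

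A start was matched for 25 of the 28 genes. Of these, 23 held such a tract, against 33.5% of 35116 annotated human starts, and in 18 the annotated first 5 bases were themselves a C and 4 bases of C or T, against 4.07% of all starts. RPSA, RPS24, RPS19, RPS21, RPS25 and RPS16 were among the 18. In RPS15 the tract begins at base 10 and in RPS28 at base 2, counted from 1 at the annotated start. The tract was therefore present at genes from both ends of the range of silvestrol-to-DMSO ratios. Annotated 5′ untranslated regions of the 28 genes were short, with a median of 107 nt (17 to 416 nt) against 175 nt in 8967 coding genes tested. Coding lengths had a median of 439.5 nt against 1347 nt (GENCODE 29). In the 25 genes with a matched start, the transcripts used for these lengths began 0 to 347 bases from it. RPS25 had the 347, so its 5′ length of 406 nt does not belong to the start shown above. The same holds for RPS24 (103 bases away, 142 nt). RPS23, RPS12 and RPS13 were 223, 128 and 120 bases from their matched starts. All these 5′ lengths enter the median of 107 nt.

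From the step that 1 read makes in the low values, the footprint libraries were estimated to hold, in units of 1e6 reads, 2.27 and 1.66 (DMSO) and 2.38 and 2.04 (silvestrol), and the RNA libraries 126.6 to 216.7. The median SD between libraries of a group was 0.18 log2 units in footprints and 0.04 in RNA. All 10 T-cell markers on the fixed list were measured in RNA, from 3.61 RPKM (PTCRA) to 674 RPKM (CD3D). Of 14 markers of other blood and stromal cells, 13 were under 0.12 RPKM, and CD79A was at 31.4 RPKM.

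The 28 genes together took up less of the footprint libraries after silvestrol and about the same of the RNA libraries. Their summed footprint level was 2659 and 2312 RPKM in the DMSO libraries and 2033 and 2084 RPKM in the silvestrol libraries, so the groups did not overlap. Of all genes tested, 25.2% were likewise lower with silvestrol without overlap. The sum leans on the genes with the highest levels: RPS25, RPS16 and RPS19 had 462, 452 and 383 RPKM in DMSO footprint replicate 1. In RNA the sum was 10450.5, 10430.8 and 10134 RPKM with DMSO and 10410.6, 10552.6 and 10499.7 RPKM with silvestrol, and these groups overlapped. RPKM is a share of each library, so a fall in all mRNAs alike would not be seen in these values, and fewer ribosomes on an mRNA cannot be told apart from a larger share for other mRNAs.

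**Figure D1:**
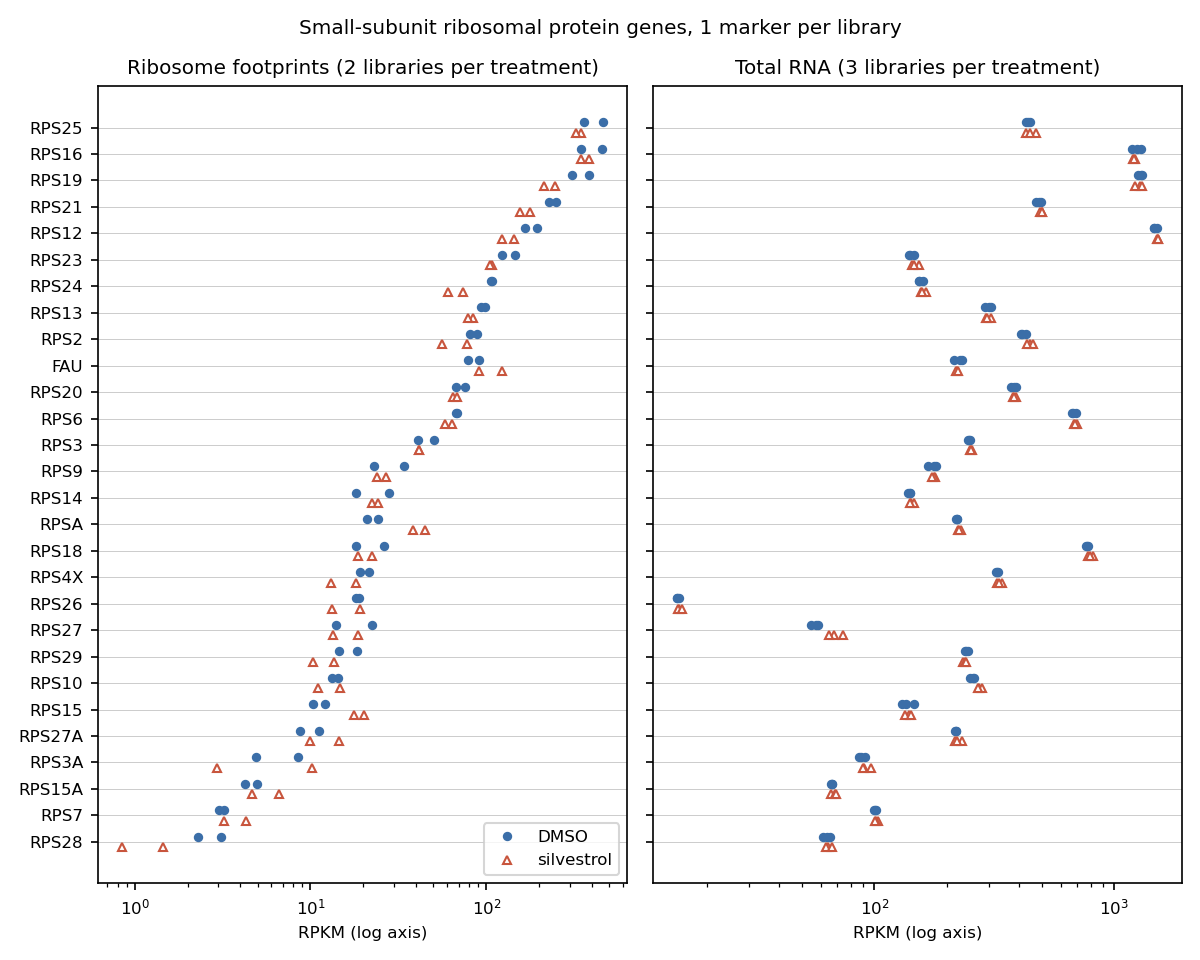
RPKM of each of the 28 genes (rows) in every library, on a log axis, for footprints and total RNA; filled circles are DMSO libraries and open triangles silvestrol libraries. The RNA points of most genes lie almost on top of each other, while footprint points spread more, most of all in RPS3A and RPS28.

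Levels in DMSO spanned 153-fold in footprints and 98.2-fold in RNA over genes whose proteins are present in equal copy number. RPKM divides by gene length, and the lengths used are not known. GENCODE 29 exon lengths over all transcripts ran from 767 nt (RPS12) to 9845 nt (RPS29), whose chosen transcripts have 631 and 677 nt. With these lengths RPS19 had an estimated 1910 to 3301 footprint reads a library and RPS25 886 to 1548, unlike their order in RPKM. The part of length in these levels was not tested. The highest footprint levels were those of RPS25, a head protein known for its part in internal ribosome entry, with 462 and 361 RPKM, RPS16 with 452 and 346 RPKM, and RPS19 with 383 and 308 RPKM. These 3 ranges overlapped, so their order is not settled. The lowest were RPS28 (2.28 and 3.11 RPKM), RPS7 (3.24 and 3.02 RPKM) and RPS15A (4.23 and 4.96 RPKM), of which the first pair overlapped. In RNA the highest were RPS12 (1510, 1470 and 1470 RPKM), RPS19 (1290, 1300 and 1250 RPKM) and RPS16 (1240, 1290 and 1180 RPKM), with RPS12 above both others in every library. The lowest was RPS26, a protein of the mRNA exit channel, with 15.3, 15 and 15 RPKM, below RPS27 (58.2, 54.2 and 56.9 RPKM) and RPS28 (63.3, 65.1 and 61.2 RPKM) in every library.

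Footprints per RNA were low for this gene group in the DMSO libraries. The ratio of mean DMSO footprint RPKM to mean DMSO RNA RPKM had a median of 0.164 over the 28 genes and 0.740 over all genes tested, and 25 of the 28 lay below the latter. The large-subunit protein genes had a median of 0.133 and non-ribosomal TOP mRNAs 0.190. The 6 other small-subunit protein genes tested had a higher median of 0.434, with ratios from 0.0334 to 1.70. Factors that assemble the 40S subunit were at 0.756 and initiation factors that bind it at 0.656. The highest ratios in the group belonged to RPS26 (1.22), RPS25 (0.94) and RPS23 (0.94), a protein of the decoding centre. The lowest belonged to RPS18 (0.0289), RPS7 (0.031) and RPS28 (0.0426).

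Many of these genes share coding sequence with pseudogenes, and none of the sources used here says how the authors treated reads that match several places. The files name 465 pseudogenes of the 28 genes, 71 of them of RPSA alone. Of the 28-base windows along each coding sequence, about the length of a footprint, a median of 22.3% occurred in no annotated pseudogene transcript. The share was 0% for RPS3A, RPS10, RPS26, RPS27 and RPS28, 6.39% for RPSA, 69.6% for RPS19 and 79.6% for RPS21. Over the 28 genes, Spearman's rho with this share was 0.68 for the DMSO footprint level, 0.51 for the DMSO RNA level and 0.40 for the footprint-to-RNA ratio. It was -0.17 between the ratio and the number of pseudogenes. These 4 values describe genes of the same libraries, which are not independent replicates. Windows also occurred in other annotated genes that are not pseudogenes. That share ran from 0% (as in RPS19 and RPS24) to 94.5% (RPS10). It was 61.9% for RPSA, 45.2% for RPS23 and 18.7% for RPS21. The part of shared sequence in these levels was not tested.

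**Figure D2:**
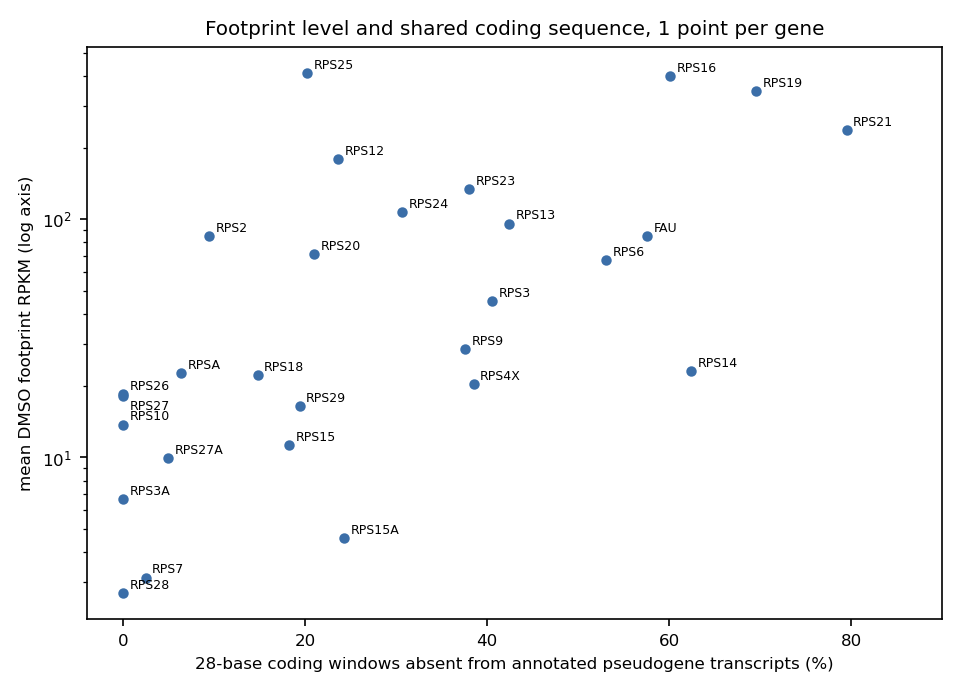
Mean DMSO footprint RPKM (log axis) against the percentage of 28-base coding windows found in no annotated pseudogene transcript, 1 point per gene. Genes at 0% include RPS28 and RPS3A near the bottom, and RPS19 and RPS21, at 69.6% and 79.6%, lie near the top; of the 4 relations computed this one had the highest rho (0.68).

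The main question the design asks is whether silvestrol altered translation of these mRNAs beyond their RNA. Translational efficiency (TE) is the footprint level relative to the RNA level, and its change is the log2 silvestrol-to-DMSO ratio of footprints minus that of RNA, in log2(RPKM + 0.5). None of the 28 genes passed an adjusted p of 0.05 in TE (limma, Benjamini-Hochberg over 10297 genes), where 0.107% of all genes tested passed: 0.0874% lower and 0.0194% higher. At an unadjusted p under 0.05, 6 of the 28 were lower and 2 higher, beside 5.29% and 2.09% of all genes. The median TE change was -0.22 in the 28 genes and -0.08 in all genes, and 21 of the 28 were below 0, as were 59.9% of all genes. Without DMSO footprint replicate 1 the median was -0.15 and 18 of the 28 were below 0, so the median rests in part on that library. With TMM scaling the medians were -0.14 and 0.00.

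The calls depended on the spread assumed for footprints. The main fit gives footprint and RNA libraries each their own variance, as their median SDs were 0.18 and 0.04 log2 units. A common variance pools the 2 assays and so tends to set the spread of footprints too low. Over the 28 genes the median SE of the TE change was 0.21 in the main fit and 0.14 with 1 common variance. That of the footprint change fitted alone lay between them, at 0.18. Whether the main fit sets the spread too high for these genes was not tested. With 1 common variance, 4 of the 28 were called lower (RPS24, RPS21, RPS28 and RPS19) and 2 higher (RPSA and RPS15), where 3.99% of all genes were called lower and 1.3% higher. Those adjusted p-values were 0.0139 for RPS24, 0.018 for RPS21, 0.0435 for RPS28, 0.0496 for RPS19, 0.00748 for RPSA and 0.0177 for RPS15. Over all 18 alternatives the adjusted p ran up to 0.751 for RPS24, 0.91 for RPS21, 0.831 for RPS28, 0.978 for RPS19, 0.515 for RPSA and 0.993 for RPS15.

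**Figure D3:**
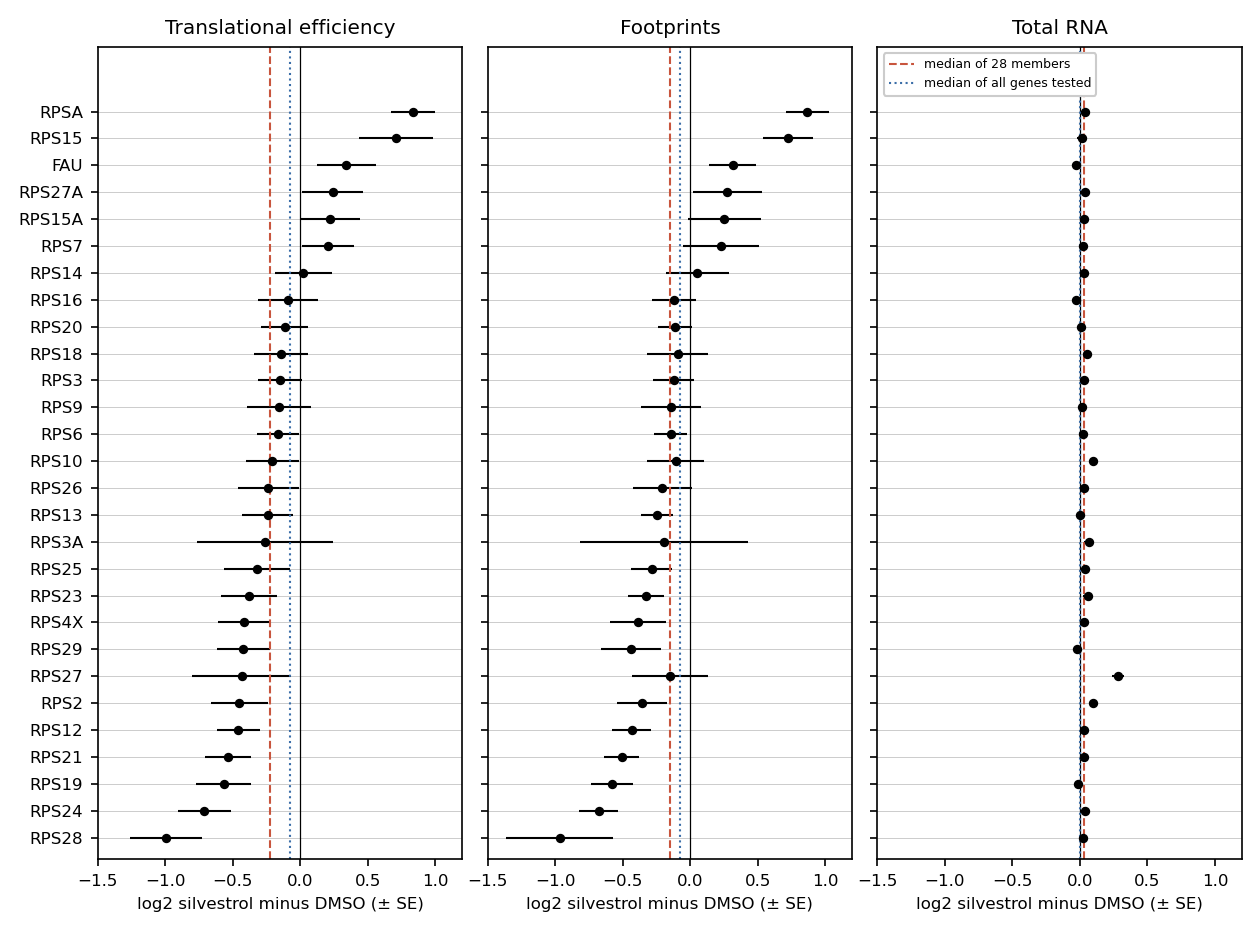
Log2 change, silvestrol minus DMSO, of each of the 28 genes in translational efficiency (left), footprints (middle) and total RNA (right), with bars of ± 1 SE; red dashed lines are the median of the 28 genes and blue dotted lines that of all genes tested. RPSA (0.83) and RPS15 (0.71) stand at the top of the TE panel and RPS28 (-0.99) at the bottom, and in the RNA panel RPS27 (0.28) stands apart from the rest.

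Among the head proteins, the median TE change was -0.18 (10 of 12 below 0). RPS15 lies near the decoding site and is recurrently mutated in chronic lymphocytic leukaemia. Its gene (ENSG00000115268.4) had 12.1 and 10.4 RPKM of footprints with DMSO and 17.7 and 20.1 RPKM with silvestrol, so both silvestrol libraries were above both DMSO libraries. Its RNA was 135, 146 and 131 RPKM with DMSO and 140, 134 and 142 RPKM with silvestrol, and the groups overlapped. The TE change was 0.71 (SE 0.272, adjusted p = 0.570, limma), on an estimated 37 to 90 footprint reads a library.

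RPS19, the protein most often mutated in Diamond-Blackfan anaemia (ENSG00000105372.1), had 383 and 308 RPKM of footprints with DMSO and 213 and 247 RPKM with silvestrol. The silvestrol libraries were both lower, and RNA overlapped between the groups (1290, 1300 and 1250 against 1280, 1220 and 1300 RPKM). The TE change was -0.57 (SE 0.204, adjusted p = 0.522, limma), with at least an estimated 1910 footprint reads in each library.

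RPS28, which lies at the mRNA exit side (ENSG00000233927.2), had the lowest TE change, -0.99 (SE 0.267, adjusted p = 0.324, limma). Its footprints were 2.28 and 3.11 RPKM with DMSO and 1.45 and 0.847 RPKM with silvestrol, and its RNA overlapped between the groups (63.3, 65.1 and 61.2 against 64.1, 62.6 and 66.3 RPKM). Scaled by depth, the 4 footprint values stood to each other as 3, 3, 2 and 1. With the GENCODE 29 exon length they come to an estimated 3.65 to 11.0 reads, which are not whole numbers in these steps, so that length is not the one behind the values and the reads may be fewer.

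RPS12 (ENSG00000112306.7) had 193 and 166 RPKM of footprints with DMSO and 144 and 122 RPKM with silvestrol, without overlap, and a TE change of -0.46 (adjusted p = 0.488, limma). For RPS25 the values were 462 and 361 against 346 and 324 RPKM, also without overlap, with a TE change of -0.32. RPS16 (452 and 346 against 346 and 383 RPKM) and RPS18 (18.1 and 26.3 against 18.6 and 22.5 RPKM) overlapped between treatments, with TE changes of -0.09 and -0.14. RPS27A is made as a fusion to ubiquitin. Its footprints were 8.74 and 11.2 RPKM with DMSO and 14.6 and 10 RPKM with silvestrol, which overlap, and the TE change was 0.24 (SE 0.225). The other head members were RPS3, which lines the mRNA entry and had a TE change of -0.15, RPS10 and RPS20, which are ubiquitinated when ribosomes collide (-0.21 and -0.12), and RPS29 (-0.42), whose footprints did not overlap (14.5 and 18.4 against 13.6 and 10.4 RPKM).

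Among the body and platform proteins, the median TE change was -0.24 (11 of 16 below 0). RPSA, which is also known as the laminin receptor and is needed for maturation of the small subunit (ENSG00000168028.8), had the highest TE change of the 28 genes. Its footprints were 24.2 and 21.0 RPKM with DMSO and 44.9 and 38.4 RPKM with silvestrol, so both silvestrol libraries were well above both DMSO libraries. Its RNA was 222, 221 and 219 RPKM with DMSO and 223, 229 and 226 RPKM with silvestrol, also without overlap but by far less. The TE change was 0.83 (SE 0.163, adjusted p = 0.115, limma), from an estimated 137 to 420 footprint reads a library. Without the filter on low values its adjusted p was 0.0158, where 0.298% of 34844 genes were called higher, and over all 18 alternatives the TE change stayed between 0.72 and 0.94.

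RPS24, another Diamond-Blackfan anaemia gene (ENSG00000138326.13), had 106 and 108 RPKM of footprints with DMSO and 60.2 and 73.9 RPKM with silvestrol. RNA was 160, 154 and 153 against 156, 164 and 158 RPKM. Footprints thus did not overlap while RNA did, and the TE change was -0.71 (SE 0.195, adjusted p = 0.335, limma), from at least an estimated 1125 reads a library. RPS21 (ENSG00000171858.12) had 226 and 248 RPKM with DMSO and 156 and 178 RPKM with silvestrol, again without overlap. Its RNA was 486, 496 and 474 against 502, 488 and 498 RPKM, and the TE change was -0.54 (SE 0.17, adjusted p = 0.419, limma).

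FAU encodes RPS30 fused to a ubiquitin-like protein. Its footprints were 90.8 and 78.9 RPKM with DMSO and 90.9 and 122 RPKM with silvestrol, which separates the groups by the last digit only, with a TE change of 0.34 (SE 0.217). RPS23 had 145 and 123 RPKM with DMSO and 108 and 105 RPKM with silvestrol (TE change -0.38). RPS7 and RPS15A, both with few footprints, had 3.24 and 3.02 against 3.24 and 4.31 RPKM and 4.23 and 4.96 against 4.66 and 6.62 RPKM. Both pairs of groups met or overlapped, and their TE changes were 0.21 and 0.22. RPS26 overlapped as well (18.8 and 18.1 against 19.2 and 13.2 RPKM, TE change -0.24), and so did RPS27 (22.4 and 14 against 18.7 and 13.5 RPKM, TE change -0.43 with an SE of 0.365). RPS3A, with an estimated 14 to 57 footprint reads a library, had 8.48 and 4.88 against 10.2 and 2.94 RPKM, the widest spread within groups; its TE change of -0.26 has an SE of 0.50 and carries little information.

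The other body and platform members had TE changes between -0.45 and 0.02. They were RPS2 (-0.45), which lines the mRNA entry with RPS9 (-0.16), RPS4X (-0.41), RPS13 (-0.24), RPS14 (0.02), the platform protein lost in the 5q- syndrome, and RPS6 (-0.17), the classic substrate of the S6 kinases. Their unadjusted p-values were all above 0.05.

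In the footprint fit alone, none of the 28 genes passed the adjusted threshold (limma), where 0.0486% of all genes did: 0.0291% lower and 0.0194% higher. At an unadjusted p under 0.05, 5 were lower and 2 higher, beside 4.87% and 2.12% of all genes. Footprint groups did not overlap in 15 members: 12 were lower with silvestrol (42.9%) and 3 higher, beside 25.2% lower and 13.1% higher among all genes. The 12 were RPS2, RPS4X, RPS6, RPS12, RPS13, RPS19, RPS21, RPS23, RPS24, RPS25, RPS28 and RPS29, and the 3 were RPSA, RPS15 and FAU. The median SE of the footprint change was 0.18 in the 28 genes and 0.26 in all genes. Without overlap, 9 of 20 non-ribosomal TOP mRNAs were lower and 1 higher. Lower and higher were 14 and 7 of 45 large-subunit genes, and 5 and 0 of 10 T-cell markers. They were 6 and 2 of 19 initiation factors, 9 and 12 of 42 assembly factors, and 0 and 0 of 6 other small-subunit genes. The median footprint change was -0.15 in the 28 genes and -0.07 in all genes. It was -0.08 without DMSO footprint replicate 1 and -0.27 without DMSO footprint replicate 2, so either of these libraries moved it, and with TMM scaling it was -0.07 beside 0.00 in all genes. Without the filter on low values, in a test of 34844 genes, RPS19, RPS21 and RPS24 were called lower, as were 0.387% of all genes, and RPSA higher, as were 0.416%.

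RNA levels of the 28 genes differed little between treatments. None passed the adjusted threshold (limma), where 0.282% of all genes did, 0.00971% lower and 0.272% higher. The median change was 0.03, against 0.00 in all genes, and the groups did not overlap, upward, in 5 members (17.9%; 8.97% of all genes) and, downward, in none (3.99% of all genes). At an unadjusted p under 0.05, 3 were higher and none lower, beside 6.95% and 2.27% of all genes. These 3 were RPS27, RPS10 and RPS2. RPS27 had 58.2, 54.2 and 56.9 RPKM with DMSO and 68.1, 73.8 and 64.5 RPKM with silvestrol, a change of 0.28 (SE 0.047, adjusted p = 0.0512, limma). Without silvestrol RNA replicate 2 it was 0.23 with an adjusted p of 0.0455, on the other side of the threshold, where 0.291% of all genes were called higher. Across the 13 alternatives, RPS27 was called in 2. RPS10 (258, 260 and 251 against 272, 282 and 270 RPKM) and RPS2 (411, 429 and 409 against 444, 457 and 434 RPKM) were each 0.10 higher, with adjusted p of 0.190 and 0.252.

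Some pseudogenes of these genes had footprint levels as high as those of members. The 7 pseudogenes at 10 RPKM or more of footprints belonged to RPS13, RPS19, RPS23, RPS24 (2 of them), RPS27 and FAU. In DMSO and silvestrol together, pseudogenes held an estimated 40.5% of the footprint reads of RPS27 and its pseudogenes, 21.0% for RPS3A, 12% for RPS7 and 7.31% for RPS24. RPS24P8 had 101 and 105 RPKM of footprints with DMSO and 59.6 and 62.4 RPKM with silvestrol, close to RPS24 itself, while its RNA was 0.558 to 1.01 RPKM in every library. RPS27P3 had 57.5 and 28 against 9.14 and 27.5 RPKM. In 2 other pseudogenes the footprint groups lay the other way from the parent gene: RPS23P8 had 12.1 and 12.9 RPKM with DMSO and 27.0 and 27.1 RPKM with silvestrol, and RPS19P1 16.3 and 13.9 against 27.1 and 21.5 RPKM. Summing each parent with its pseudogenes gave TE changes of 0.83 for RPSA, -0.72 for RPS24, -0.55 for RPS19, -0.37 for RPS23, -0.86 for RPS28 and -0.73 for RPS27. Of these, RPS27 moved by over 1.5 times, from -0.43.

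The proteins with a counterpart in bacteria (13, the universal or uS family) had a median TE change of -0.14 and those without one (15, the eS family) of -0.32. RPSA and RPS15 are both of the first kind, and RPS28, RPS24, RPS19 and RPS21 all of the second. The difference between these medians was not tested.

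The large-subunit protein genes had a median TE change of -0.12 over 45 tested, and 1 of them fell, RPLP1, a protein of the ribosomal stalk (-1.13, adjusted p = 0.0193, limma). Non-ribosomal TOP mRNAs had a median of -0.21 over 20 genes, initiation factors that bind the 40S subunit -0.10 over 19, other small-subunit protein genes -0.10 over 6, and factors that assemble the 40S subunit -0.01 over 42, each with no gene called, where 0.107% of all genes were. With 1 common variance, 3.99% of all genes were called lower and 1.3% higher. In that fit, 4 of the 20 TOP mRNAs were called lower (PABPC1, CCNI, NPM1 and NACA). Of the 45 large-subunit genes, 5 were called lower and 2 higher. EIF1 was called lower among the initiation factors, and MPHOSPH10 higher among the assembly factors. No difference between lists was tested.

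**Figure D4:**
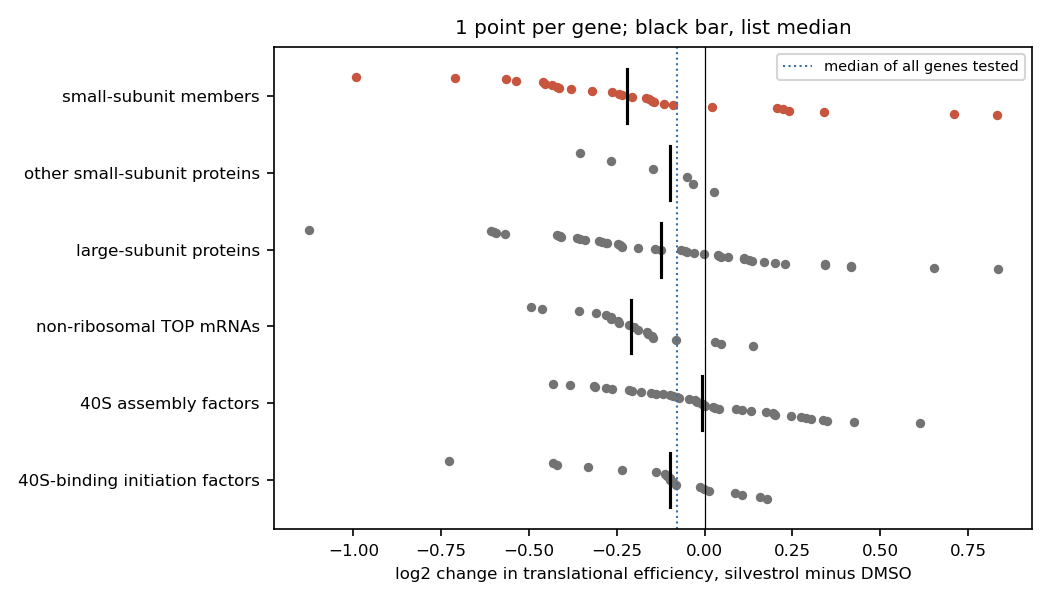
TE change (log2, silvestrol minus DMSO) of every tested gene in each list, 1 point per gene, with the list's median as a bar and the median of all genes tested as a dotted line. The 28 small-subunit genes have a median of -0.22 and the assembly factors one of -0.01, and the lists overlap over most of their range.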

How the data were processed

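The deposited values are RPKM (reads per gene, scaled by gene length and library size), 1 file a library, made by the authors. The submitters' processing notes name STAR, without a version, and hg19. The counting tool, its annotation, its strand setting and its treatment of reads with several matches are given in none of the sources used here. Changes were computed from log2(RPKM + 0.5) in genes with a mean of at least 1 RPKM in RNA and in footprints (10297 genes), with limma 3.58.1 in R 4.3.3: moderated, trended and robust variances, two-sided tests, Benjamini-Hochberg adjustment over all genes and a threshold of 0.05. TE was the interaction of assay and treatment over all 10 libraries, with 1 variance weight per assay (footprints 0.119, RNA 4.12). Footprints (4 libraries) and RNA (6) were also fitted alone. As alternatives, libraries were rescaled by a trimmed mean of log ratios (TMM, unweighted) or by their median. The scripts were tested on simulated data. 

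The 28 members, the other lists and the tests were chosen with earlier results of these data known. The members given with values by library are the 4 highest and 4 lowest in TE change and the 3 highest and 3 lowest by DMSO footprint, RNA and their ratio. RPS2, RPS3A, RPS10 and RPS29 were added after their values were seen. Values of all 10 libraries are given for RPSA, RPS15, RPS19, RPS21, RPS24, RPS27 and RPS28. For the others only some libraries are given, mostly those of footprints. The 28-base windows, the rule for the start tract, the choice of a transcript, the correlations with shared sequence, the list of pseudogenes at 10 RPKM or more and the read steps of RPS28 were also chosen after values were seen. Transcripts were ranked by GENCODE annotation class (basic tag, then APPRIS class). Nearness to the RefSeq start decided only between transcripts of equal class. Depth was estimated from low values with GENCODE 29 exon lengths, with 89.4% to 91.7% of values under 10.5 reads within 0.05 of a whole number of reads. RNA reads in genes summed to 118.3% to 119.8% of these totals, so depths and read numbers are rough. Start sequences are from RefSeq. Gene names came from the supplied table of symbols (49395 identifiers) and GENCODE 29 (267).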

Additional observations from a re-analysis of the deposited data

How the results depend on the processing

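The tests were repeated under 18 alternatives for TE, 11 for footprints and 13 for RNA. With 1 common variance, 4 members were called lower in TE and 2 higher, against 0 each in the main fit. In that alternative 3.99% of all genes were called lower and 1.3% higher, against 0.0874% and 0.0194% in the main fit. Without the filter on low values, 1 member was called higher in TE (RPSA). In footprints, 3 were called lower (RPS19, RPS21, RPS24) and 1 higher (RPSA) without that filter, where 0.387% of 34844 genes were called lower and 0.416% higher (TE 0.298% higher). In RNA, leaving out 1 replicate gave 0 to 1 called higher, and the replicate block 1 (RPS27, adjusted p = 0.0334, limma; 0.476% of all genes higher). The labels do not say whether replicate numbers pair the libraries. Across treatments, deviations from group means of same-numbered libraries correlated at 0.04, -0.33 and 0.15 in RNA and -0.03 in footprints. Differently numbered RNA libraries gave -0.32 to 0.30. Deviations within a group sum to 0, so these values cannot settle whether libraries were paired. Footprint libraries were not compared with RNA libraries in this way. The block changed no other member's call. The cause of these differences was not tested.

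No member called under an alternative changed its sign in that comparison. Leaving out 1 library turned the sign of these other log2 changes, given as their lowest and highest values. In TE these were RPS3A (-1.08 to 0.56), RPS9 (-0.44 to 0.13), RPS14 (-0.29 to 0.33), RPS15A (-0.0097 to 0.45), RPS16 (-0.28 to 0.10), RPS18 (-0.41 to 0.12), RPS26 (-0.50 to 0.0259) and RPS27A (-0.0224 to 0.50). In footprints they were RPS3 (-0.27 to 0.026), RPS3A (-1.01 to 0.62), RPS9 (-0.42 to 0.14), RPS10 (-0.31 to 0.0942), RPS14 (-0.26 to 0.36), RPS16 (-0.31 to 0.0732), RPS18 (-0.35 to 0.17), RPS26 (-0.47 to 0.0562) and RPS27 (-0.48 to 0.18). In RNA they were RPS9 (-0.0149 to 0.039), RPS13 (-0.0242 to 0.0146), RPS15 (-0.0182 to 0.0597), RPS16 (-0.0639 to 0.0004), RPS19 (-0.0344 to 0.0114), RPS20 (-0.0132 to 0.0208) and RPS25 (-0.0056 to 0.0681). RNA of RPS15 was at -0.002 with median scaling, and that of RPS20 at -0.0019 with TMM and -0.0119 with median scaling. The fewest footprint reads were estimated for RPS28, RPS3A, RPS27 and RPS7, with at most 57 in any library.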
